A study of Haplochromis burtoni and Lepidiolamprologus elongatus and Tropheus moorii with 25 samples.

Results

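The genes described here are the named components of the Wnt, Notch, BMP and Hedgehog signalling pathways, read in single intestinal cells of African cichlid fishes. They were chosen by symbol alone, as every feature of the shared feature list whose name matches a pattern of pathway gene names. The pattern found 68 of 42622 features. Of these, 63 belong to the pathways and 5 belong to other gene families whose names share the same letters (bmp2k, a kinase, jagn1, a protein of the endoplasmic reticulum, and the patched-domain genes ptchd1, ptchd3 and ptchd4). A further 30456 features carry only a LOC identifier and could not be matched by symbol, so members of the pathways among them are not analysed here. Searches of the symbols for axin, nog, ihh, her, notch2, notch3, lrp6, bmp7 and wnt5 found no feature.

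These pathways carry short-range signals between the epithelium that lines the gut and the connective tissue beneath it. In the mammalian intestine, Wnt ligands and R-spondins keep stem cells dividing, Notch signals between neighbouring epithelial cells decide between absorptive and secretory fates, BMP ligands favour differentiation, and Hedgehog ligands made by the epithelium act on the connective tissue. The ligands, the receptors and the direct target genes of a pathway are thus often expressed by different cells.

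The study collected dissociated intestine from 25 species, with 1 library of Chromium 3' v3.1 chemistry for each species. The species are Bathybates ferox, Benthochromis horii, Boulengerochromis microlepis, Callochromis pleurospilus, Cyphotilapia frontosa, Cyprichromis coloratus, Eretmodus cyanostictus, Haplochromis burtoni, Haplotaxodon microlepis, Julidochromis ornatus, Lepidiolamprologus attenuatus, Lepidiolamprologus elongatus, Limnotilapia dardennii, Neolamprologus brevis, Neolamprologus brichardi, Oreochromis niloticus, Perissodus microlepis, Petrochromis orthognathus, Shuja horei, Simochromis diagramma, Telmatochromis vittatus, Trematocara zebra, Triglachromis otostigma, Tropheus moorii and Xenotilapia spiloptera. No treatment, age, sex or diet is given in the labels, and no pair of species was compared because each has a single library. The files hold between 7016583 and 32569739 UMIs per library (a UMI tags 1 captured transcript), and 98143 of 115682 cell barcodes were kept. The Trematocara zebra library holds exactly 2000 barcodes and that of Haplotaxodon microlepis 5000, and the comparisons were also computed without each of these libraries. Among 300 pairs of libraries, a pair shared at most 17 barcode sequences.

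The members were compared between classes of barcodes within each library. Cycling barcodes had a UMI of mki67 or top2a, which are expressed in dividing cells, mogat2-positive barcodes had a UMI of mogat2, an enzyme of fat re-esterification in absorptive cells, and collagen-positive barcodes had at least 2 UMIs of col1a1, col1a2 and col6a1. The classes held 2200 cycling, 14764 mogat2-positive and 2008 collagen-positive barcodes, against 77722 unmarked barcodes without a UMI of any of these genes. Left out were 735 barcodes with several marks and 714 with 1 UMI of a collagen gene and no other mark. Counts were summed over the barcodes of a class in each library that had at least 20 of them, which left 21 libraries for the cycling, 25 for the mogat2-positive and 20 for the collagen-positive class. In such sums, fewer barcodes expressing a gene and fewer transcripts per barcode cannot be told apart. Levels are given as CPM, the UMIs of a gene divided by all UMIs of the class sum and multiplied by 1000000, as the lowest, median and highest library. They compare one gene between classes and not 2 genes with each other, since transcript length and capture differ between genes.

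Marker lists showed what the classes contained. The 7 matched fibroblast markers summed to 2330, 7070 and 13570 CPM in collagen-positive sums (lowest, median and highest library) and to 0.386, 3.19 and 31.1 CPM in unmarked sums, although this list shares col1a1 and col1a2 with the mark. The 3 matched muscle markers (155 against 2.85 CPM in the median library) and the 4 matched endothelial markers (25.9 against 3.96 CPM) were each higher in collagen-positive sums too. The 9 matched absorptive markers had a median of 20960 CPM in mogat2-positive and 2781 CPM in unmarked sums, although this list holds mogat2, the mark itself. Pooled over libraries, 8 of the 9 were higher in mogat2-positive barcodes, and cubn was lower (12.3 against 63.3 CPM). Unmarked barcodes were a mixture, in which 36016 carried an immune mark only and 19783 an epithelial mark only. Immune markers had a median of 848 CPM in cycling, 29.7 CPM in mogat2-positive, 95.4 CPM in collagen-positive and 780 CPM in unmarked sums. Enteroendocrine markers (4 matched) had a median of 100.5 CPM in mogat2-positive and 294 CPM in unmarked sums, and goblet markers (2 matched) 1038 CPM in cycling epithelial-marked, 127 CPM in mogat2-positive and 445 CPM in unmarked sums, and their part in the results was not tested. A comparison added after the data were seen is given beside the epithelial results. It limited the cycling and unmarked classes to barcodes with an epithelial and no immune mark. The mogat2-positive class was not limited in it, and 88.7% of its barcodes carried an epithelial mark. Marks of 1 UMI can also occur in droplets of other cells through free RNA. A UMI of mogat2 was found in 1.69% of barcodes with an immune mark only and in 36.6% of those with an epithelial mark only, and at least 2 collagen UMIs were found in 0.411% and 1.33% of them. An epithelial mark was found in 22.1% and an immune mark in 10.4% of collagen-positive barcodes, and an immune mark in 12.7% of mogat2-positive barcodes. No set of barcodes that should lack mki67 and top2a was defined. Depth also moved with the classes, with a median of 7294 UMIs per barcode in cycling, 6290 in mogat2-positive, 3465 in collagen-positive and 1905 in unmarked barcodes (medians over libraries), and its part was tested only by a minimum of 2000 UMIs, given with the processing alternatives.

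Over all kept barcodes the members held 157438 UMIs, and their summed level was between 222.6 CPM in Haplotaxodon microlepis and 582.7 CPM in Lepidiolamprologus attenuatus, with a median of 366.8 CPM. A UMI was found in every library for 33 of the 68 members, while 12 members had fewer than 50 UMIs in all libraries together. Wnt ligands were the sparsest role, with 1579 UMIs over 13 genes, of which 9 had fewer than 50 UMIs and wnt2b alone had 1007. The members of these pathways with the most UMIs were fzd5 with 15035, hes1 with 13647, lrp5 with 12896, jag1 with 11784, hes4 with 10064 and lgr4 with 7955 UMIs.

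In collagen-positive barcodes, the receptors and transcription factors of Hedgehog signalling, the ligands wnt2b, bmp4 and bmp6, the R-spondin rspo3 and the secreted Wnt antagonists sfrp1 and sfrp5 were higher than in unmarked barcodes. Among the members tested, the Wnt receptor fzd5 fell most. Of the 68 members, 30 passed the filter on low counts, and edgeR's quasi-likelihood test with the library as a block and Benjamini-Hochberg adjustment over 11755 features called 21 of them higher and 2 lower at an adjusted p under 0.05. Over all features tested, 24.3% were called higher and 39.6% lower. A change of at least 2-fold upwards was called for the same 21 members and for 16.4% of all features, and at least 2-fold downwards for 1 member and 26.8% of all features. The median log2 fold change was 2.21 over the members tested and -0.26 over all features tested. A member that passed the filter only because it is high in collagen-positive sums had to differ, so these counts describe the members that passed and not the 68. Of the 21 called higher, 13 passed through the collagen-positive sums alone and would not have passed on the unmarked sums (bmp4, dll4, fzd4, fzd6, gli1, gli2, gli3, ptch1, rspo3, sfrp1, sfrp5, smo and wnt2b). Their fold changes are given as a description, without p-values. The same holds for fzd5, which fell and passed through the unmarked sums alone. The share of all features whose ranges did not overlap between the classes was not counted, so ranges that do not overlap are a description too. P-values here and below measure the spread between species, whose shared ancestry was not modelled.

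Among the Hedgehog genes, the receptor ptch1, itself a transcriptional target of the pathway in vertebrates, had 7.65, 69.4 and 210 CPM in collagen-positive sums against 0, 0.332 and 1.03 CPM in unmarked sums. All 20 libraries were higher in collagen-positive barcodes and the ranges did not overlap (log2 fold change 7.36 ± 0.36 SE). The signal transducer smo, which ptch1 inhibits, had 12.8, 75.4 and 162 CPM against 0, 0.276 and 1.42 CPM, again with no overlap and a log2 fold change of 7.77 ± 0.36.

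The transcription factors of the pathway followed the same order. For gli1, whose expression is a standard readout of pathway activity, the values were 11.6, 30.4 and 62.5 CPM in collagen-positive sums and 0, 0 and 1.42 CPM in unmarked sums (log2 fold change 8.15 ± 0.39). The activator gli2 had 10.2, 40 and 80.6 CPM against 0, 0 and 0.412 CPM (8.49 ± 0.36). The factor gli3, which acts mainly as a repressor when the pathway is off, had 3.98, 27.3 and 119 CPM against 0.11, 0.629 and 2.01 CPM (5.79 ± 0.31). For each of these factors, every library was higher in collagen-positive barcodes and the lowest collagen-positive library lay above the highest unmarked library.

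The ligand of these receptors was found elsewhere. Sonic hedgehog, shh, had 3 UMIs in collagen-positive sums and 533 UMIs in the unmarked sums of the same 20 libraries, and did not pass the filter. It is the only Hedgehog ligand among the members, and dhh, which the pattern does not name, was not analysed here. Within the unmarked class, shh had 24.35 CPM in barcodes with at least 2 UMIs of enteroendocrine markers, 16.7 CPM in barcodes with at least 2 UMIs of goblet markers, 7.04 CPM in barcodes with an epithelial mark only and 0 UMIs in those with an immune mark only, where a count of 0 allows up to 0.033 CPM by counting error alone. It was higher in the enteroendocrine-marked than in the epithelial-marked barcodes in 20 of 25 libraries and lower in 3. Cycling barcodes with an epithelial mark only had 2.38 CPM and mogat2-positive sums 0, 0.761 and 14.7 CPM of shh, with the highest value in Callochromis pleurospilus.

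**Figure D1:**
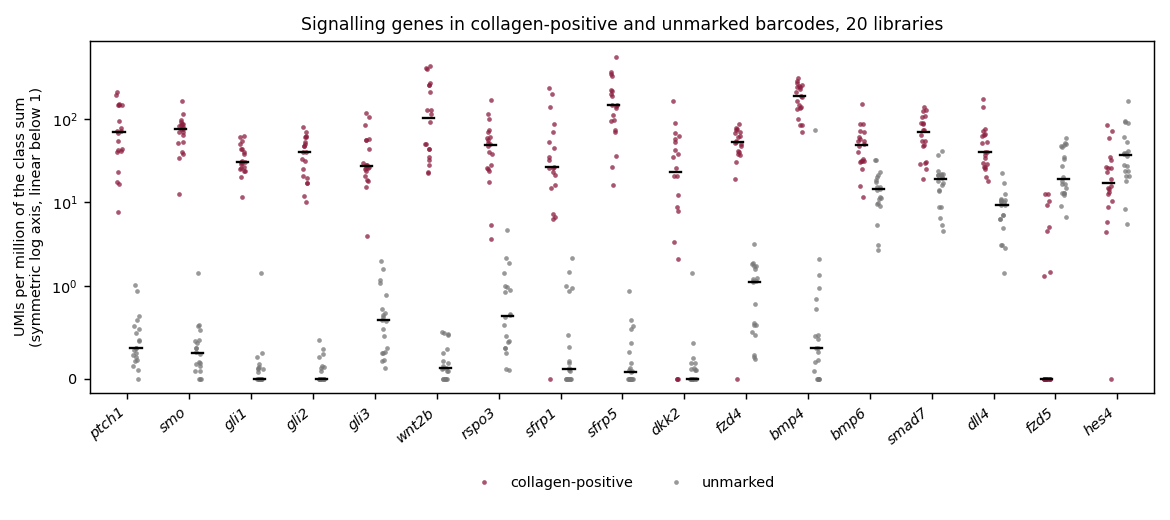
Each point is the level of a member in the collagen-positive or the unmarked sum of 1 of 20 libraries, in CPM on a symmetric log axis that is linear below 1, and black bars mark medians. The values of ptch1, smo, gli1, gli2, gli3, wnt2b and sfrp5 do not overlap between the classes, while fzd5 and hes4 are lower in collagen-positive sums and bmp4 has 1 unmarked library at 73.1 CPM. All members named as not overlapping passed the filter through the collagen-positive sums alone, and the share of all features without overlap was not counted.

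Of the Wnt ligands, wnt2b, which is made by connective tissue in the mammalian gut, had 22.2, 103 and 431 CPM in collagen-positive sums, against 0, 0.112 and 0.501 CPM in unmarked sums. The ranges were apart in all 20 libraries, and the log2 fold change was 9.29 ± 0.41. No other Wnt ligand passed the filter in this comparison. Among those below it, wnt16 had 30 UMIs in collagen-positive and 13 in unmarked sums, and wnt9a had 19 and 14 UMIs, although the unmarked class is many times larger.

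R-spondins bind lgr4 and lgr5 and so raise the response of a cell to Wnt ligands. In collagen-positive sums, rspo3 had 3.64, 48.3 and 167 CPM, against 0.0954, 0.674 and 4.72 CPM in unmarked sums. It was higher in 20 of 20 libraries, with ranges that overlapped through the highest unmarked value in Haplotaxodon microlepis (log2 fold change 5.81 ± 0.31). The related rspo1 did not pass the filter, with 85 UMIs in collagen-positive and 18 in unmarked sums, and was higher in 14 of the 19 libraries with a UMI. For rspo2, 4 and 5 UMIs were counted. In mogat2-positive sums, rspo3 was also measured in most libraries, at 0, 1.18 and 6.60 CPM, and was higher than in unmarked sums in 21 of 25 libraries, but was not tested because it did not pass the filter.

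Secreted antagonists of Wnt ligands were high in the same class. The frizzled-related protein sfrp5 had 15.9, 145 and 553 CPM in collagen-positive sums and 0, 0.0729 and 0.943 CPM in unmarked sums, without overlap (log2 fold change 9.86 ± 0.38). For sfrp1 the values were 0, 26.4 and 237 CPM against 0, 0.103 and 2.14 CPM, higher in all 19 libraries with a UMI (6.97 ± 0.56). The antagonist dkk2, which binds the co-receptors of the lrp family, had 344 UMIs in collagen-positive and 17 in unmarked sums and was higher in 17 of the 18 libraries with a UMI, but did not pass the filter. For sfrp2, 22 and 26 UMIs were counted, again with a many times larger unmarked class, and it was higher in 9 and lower in 8 of the 17 libraries with a UMI.

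Wnt receptors split by class. The receptor fzd4 had 0, 52.1 and 87.5 CPM in collagen-positive and 0.209, 1.12 and 3.13 CPM in unmarked sums, higher in 19 of 20 libraries (log2 fold change 5.48 ± 0.26). It was followed by fzd6, at 0, 16.9 and 32.6 CPM against 0.707, 2.69 and 11.1 CPM (2.54 ± 0.29). In contrast, fzd5 fell to 0, 0 and 12.7 CPM in collagen-positive sums, against 6.72, 19.1 and 59.7 CPM in unmarked sums, lower in 20 of 20 libraries (-3.31 ± 0.29). The co-receptor lrp5 rose by a log2 fold change of 1.17 ± 0.25 and the ubiquitin ligase rnf43, which removes frizzled receptors from the cell surface, by 1.48 ± 0.36. Both rises are against the mixed unmarked class, and collagen-positive barcodes were not compared with its epithelial-marked barcodes alone. Pooled over libraries, lrp5 had 36.97 CPM in collagen-positive, 17.89 CPM in unmarked and 47.55 CPM in mogat2-positive barcodes. The R-spondin receptor lgr4 (12.5 against 11.03 CPM in the median library) and the ligase znrf3 (6.80 against 4.09 CPM) did not pass the test. Below the filter, fzd2 had 42 UMIs in collagen-positive and 12 in unmarked sums, fzd8 40 and 30, fzd3 11 and 924, lgr5 7 and 1049, and lgr6 3 and 33.

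The BMP ligand bmp4 had 69.6, 185 and 306 CPM in collagen-positive sums, against 0, 0.332 and 73.1 CPM in unmarked sums. All 20 libraries were higher, and the ranges overlapped only through the unmarked barcodes of Lepidiolamprologus attenuatus (log2 fold change 8.53 ± 0.59). Without that or any other single library the fold change stayed between 8.27 and 8.83. The ligand bmp6 had 11.6, 48.6 and 150 CPM against 2.68, 14.4 and 32.3 CPM, higher in 19 of 20 libraries (1.72 ± 0.18, adjusted p = 4.38e-09). Below the filter, bmp5 had 58 UMIs in collagen-positive sums and 1 in unmarked sums, bmp2 27 and 69, the extracellular BMP-binding protein bmper 100 and 76, and the type I receptor bmpr1b 61 and 38.

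On the receiving side of BMP signalling, the type II receptor bmpr2 had 22.2, 45.0 and 81.9 CPM in collagen-positive and 8.49, 17.3 and 24.6 CPM in unmarked sums, higher in 20 of 20 libraries (log2 fold change 1.42 ± 0.14, adjusted p = 4.94e-10). The signal-transducing smad1 rose by 2.51 ± 0.28 on the log2 scale and smad3, which transduces activin and TGF-beta signals, by 1.37 ± 0.39. The inhibitory smads, which BMP and TGF-beta signals induce, also rose. For smad7 the values were 18.8, 69.0 and 139 CPM against 4.53, 18.8 and 41.7 CPM (1.91 ± 0.22, adjusted p = 2.24e-08), and for smad6 they were 0, 8.51 and 46.8 CPM against 0, 0.886 and 6.77 CPM (3.08 ± 0.35). No p-value is given for smad6, which passed the filter mostly through the collagen-positive sums, with 14 collagen-positive and 3 unmarked libraries past the cutoff. For smad9 the log2 fold change of 0.55 ± 0.37 did not pass the test (adjusted p = 0.196).

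Among the Notch genes, the ligand dll4 had 17.9, 39.9 and 171 CPM in collagen-positive sums, against 1.42, 9.27 and 22.2 CPM in unmarked sums, higher in 20 of 20 libraries (log2 fold change 2.57 ± 0.24). The target hes4 was lower, at 0, 17.2 and 84.6 CPM against 5.52, 37.0 and 164 CPM (-0.98 ± 0.30, adjusted p = 0.00569). The ligand jag1 (25.2 against 28.3 CPM in the median library) and the target hes1 (27.2 against 40.1 CPM) did not pass the test. The receptor notch1 did not pass the filter, with a median of 6.91 CPM in collagen-positive and 1.89 CPM in unmarked sums, nor did the ligand dll1 (26 and 150 UMIs) and the target hey1 (9 and 373 UMIs).

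Collagen-positive barcodes were not uniform. Of the 2008, 112 also had a UMI of an endothelial marker, 470 of a muscle marker, 31 of both and 1395 of neither. Any endothelial UMI was thus found in 7.12% and any muscle UMI in 25.0% of them (median depth 3465 UMIs), against 0.83% and 0.551% of barcodes with an immune mark only (2018 UMIs) and 0.555% and 1.19% of those with an epithelial mark only (3208.5 UMIs). These shares cover single UMIs, which free RNA can also give, so the marked barcodes are sets and not cell types. In endothelial-marked ones, notch1 had 81.3 CPM, against 2.92 CPM in those with neither mark, and was higher in 5 of the 5 libraries with at least 10 barcodes of each. Likewise dll4 had 103 against 53.4 CPM and smad1 120 against 30.7 CPM in these sets, each higher in 4 of 5 libraries, whereas gli1, gli2 and gli3 had 9.20, 12.3 and 15.3 CPM in endothelial-marked barcodes and 34.2, 41.1 and 44.6 CPM in those with neither mark. Muscle-marked barcodes had 286.5 CPM of bmp4, against 170 CPM in those with neither mark, and were higher in 13 of 15 libraries. When collagen-positive barcodes with any endothelial or muscle UMI were left out, a comparison added after the data were seen, 22 of the 23 called members were called in the same direction. The exception was smad6, which then did not pass the filter, and the log2 fold changes were 7.28 for ptch1, 9.31 for wnt2b, 8.17 for bmp4 and 2.37 for dll4. The target hes1 was then also called lower (-0.60, adjusted p = 0.0473). The barcodes left in are part of the same class and were set against the same unmarked class. Of the members called higher, 13 had passed the filter through collagen-positive sums alone and had to differ. The count of 22 is thus a description.

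Barcodes with and without a UMI of bmp4 were set side by side within the collagen-positive class. The 729 with bmp4 were deeper, with a median of 4907 UMIs, against 2913 UMIs in the 1279 without it. The antagonist dkk2 had 70.8 CPM in bmp4-positive and 12.7 CPM in bmp4-negative barcodes, higher in 16 of 19 libraries and lower in none. Of its 394 UMIs in all kept barcodes, 32.2% came from Lepidiolamprologus elongatus. Also higher with bmp4 were rspo3 (76.3 against 34.2 CPM, in 17 of 19 libraries) and rspo1 (15.9 against 3.99 CPM, in 12 of 19). The other members higher in at least 12 of 19 libraries were gli3 in 14, lrp5 and sfrp5 in 13 each, and bmpr1b, gli1 and lgr4 in 12 each. No such order was seen for wnt2b (96.1 against 112 CPM, higher in 11 and lower in 8 libraries) or smo (64.8 against 62.2 CPM, higher in 11 and lower in 8). Lower with bmp4 in at least 12 of 19 libraries were smad1 in 15, notch1 and hes1 in 13 each and hes4 in 12, with 1.84 against 17.1 CPM of notch1. These are descriptions without a test, and the part of depth was not tested.

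Across the 20 collagen-positive sums, the non-member features whose levels were most alike those of bmp4, the member with the most UMIs there, were rock2 (Pearson r = 0.765 of log2(CPM + 10)), fam3c (0.717) and LOC102079201 (0.694), out of 11754 features. These sums share their libraries and depths, and no p-value is attached.

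**Figure D2:**
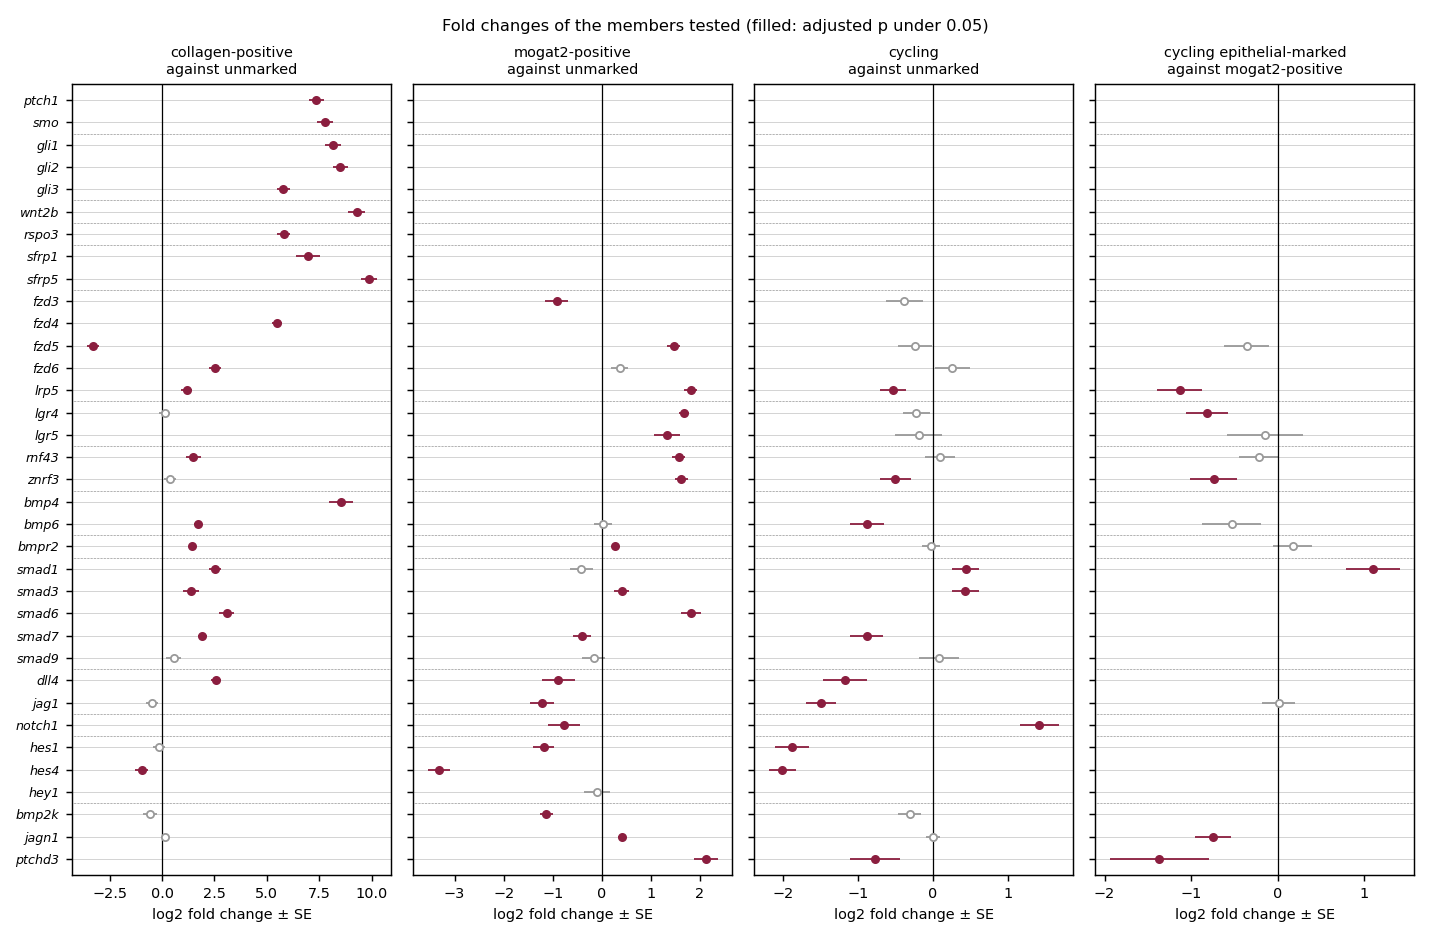
Points give the log2 fold change of each member that passed the filter on low counts, with bars for its standard error, in the 4 comparisons named above the panels, and genes run down the page by role. Filled points passed at an adjusted p under 0.05, with 21 higher and 2 lower in collagen-positive, 11 higher and 8 lower in mogat2-positive, 3 higher and 9 lower in cycling, and 1 higher and 5 lower in cycling epithelial-marked barcodes. The scales of the axes differ between panels.

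In mogat2-positive barcodes, the Wnt receptor fzd5, the co-receptor lrp5, the R-spondin receptors lgr4 and lgr5 and the ligases znrf3 and rnf43 were higher than in unmarked barcodes, and the receptor fzd3, the Notch ligands jag1 and dll4 and the targets hes1 and hes4 were lower. Of 24 members tested, 11 were called higher and 8 lower in edgeR's test, beside 33.3% higher and 40.9% lower of 13463 features. At least 2-fold changes were called for 8 members upwards and 4 downwards, beside 16.6% and 21.1% of all features. The median log2 fold change was 0.14 over the members tested and -0.10 over all features tested. Scaling by library totals was an alternative added after the data were seen. The scaling factors that set these fold changes (the trimmed mean of M-values, TMM) were lower in mogat2-positive than in unmarked sums by a median of 0.409 on the log2 scale, so a fold change is higher than the ratio of the CPM values by about that amount. With library totals in place of these factors, bmpr2 had a log2 fold change of -0.16 in place of 0.27, jagn1 -0.02 in place of 0.40 and smad3 -0.05 in place of 0.40, and none of these was called, while 16 of the 19 calls held in the same direction. The members bmp6, smad1 and smad9 were then called lower, which made 8 called higher and 11 lower. Over all features the median log2 fold change then moved to -0.54, and the share of calls that were lower to 74.0%, against 55.1%.

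The R-spondin receptor lgr4 had 9.41, 25.2 and 70.1 CPM in mogat2-positive sums, against 2.24, 9.65 and 33.2 CPM in unmarked sums, and was higher in 25 of 25 libraries (log2 fold change 1.67 ± 0.11, adjusted p = 9.55e-14). Its relative lgr5, which marks stem cells at the crypt base of mammals, had 0.791, 6.41 and 53.8 CPM against 0.192, 2.81 and 21.7 CPM. It was higher in 16 of 25 libraries and lower in 9 (1.32 ± 0.26), and as it passed the filter through the mogat2-positive sums alone, no p-value is given. The third receptor, lgr6, had 6 and 36 UMIs and was not tested.

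The Wnt co-receptor lrp5 had 4.73, 47.0 and 87.2 CPM against 4.52, 14.8 and 48.5 CPM (log2 fold change 1.81 ± 0.13, adjusted p = 2.25e-13), and fzd5 had 12.0, 39.9 and 129 CPM against 3.69, 17.9 and 59.7 CPM (1.46 ± 0.13, adjusted p = 2.36e-11). The ligases that clear frizzled receptors from the surface rose in 25 of 25 libraries each. For znrf3 the log2 fold change was 1.62 ± 0.14 (10.3 against 3.91 CPM in the median library), and for rnf43 it was 1.56 ± 0.13 (6.60 against 2.31 CPM). The receptor fzd3 was lower, at 0.791 against 2.28 CPM in the median library (-0.92 ± 0.23). It passed the filter mostly through the unmarked sums, with 15 unmarked and 7 mogat2-positive libraries past the cutoff, so no p-value is given.

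Of the smads, smad6 rose in mogat2-positive sums (2.41 against 0.849 CPM in the median library, log2 fold change 1.81 ± 0.20) and smad7 fell (8.02 against 16.9 CPM, -0.40 ± 0.18, adjusted p = 0.0433), but the call for smad7 was lost when any 1 of 17 libraries was left out (adjusted p between 0.0537 and 0.322). The BMP ligand bmp6 (11.2 against 14.2 CPM, adjusted p = 0.925) did not pass the test. Of the off-family members, ptchd3 had the highest fold change of all members tested, 2.12 ± 0.24 (29.3 against 5.60 CPM, higher in 22 of 25 libraries), and like lgr5 it passed the filter through the mogat2-positive sums alone, while bmp2k fell by 1.13 ± 0.13 on the log2 scale in 25 of 25 libraries. Of these members, bmp2k passed the filter through the unmarked sums alone.

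The Notch targets hes4 and hes1 and the ligands jag1 and dll4 were lower in mogat2-positive barcodes. For hes4 the values were 0, 2.45 and 12.6 CPM in mogat2-positive sums and 5.52, 30.1 and 164 CPM in unmarked sums, lower in 25 of 25 libraries (log2 fold change -3.32 ± 0.23). For hes1 they were 3.05, 11.2 and 32.3 CPM against 2.77, 36.1 and 269 CPM, lower in 22 of 25 (-1.19 ± 0.21, adjusted p = 1.28e-05). The ligand jag1 had 3.095, 11.1 and 37.5 CPM against 8.97, 30.5 and 283 CPM, lower in 24 of 25 (-1.22 ± 0.24, adjusted p = 5.07e-05). The ligand dll4 (1.72 against 9.17 CPM in the median library) and the receptor notch1 (0.859 against 1.84 CPM) were lower in 20 and 19 of 25 libraries. Both hes4 and dll4 passed the filter here through the unmarked sums alone, so no p-value is given for their calls. None is given for that of notch1 either, which passed mostly through the unmarked sums, with 17 unmarked and 8 mogat2-positive libraries past the cutoff. Leaving out Haplochromis burtoni, Neolamprologus brichardi or Petrochromis orthognathus ended the call for dll4 (adjusted p between 0.0523 and 0.0705), and leaving out any 1 of 11 libraries ended that for notch1. Refitted in full without Trematocara zebra, dll4 (adjusted p = 0.0978), notch1 (0.0951) and smad7 (0.185) were all no longer called. The target hey1 (1.20 against 1.18 CPM, adjusted p = 0.763) did not pass the test, and below the filter dll1 had 64 and 163 UMIs, shh 161 and 580, bmp4 40 and 612, bmp2 19 and 75, and sfrp1 105 and 78.

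Because the unmarked class held more barcodes with an immune mark only than with an epithelial mark only, mogat2-positive barcodes were also compared with unmarked barcodes that had an epithelial mark and no immune mark, the alternative named above. Of the 19 calls, 11 held in the same direction, while fzd3, notch1 and smad6 did not pass the filter in this comparison and were not tested again. Against this epithelial-marked reference the log2 fold change was 0.37 for lgr4, 0.57 for lrp5, 0.51 for znrf3, 0.34 for rnf43 and 0.80 for ptchd3, each still called higher. It was 0.09 for fzd5 (adjusted p = 0.413), 0.09 for lgr5 (adjusted p = 0.77) and 0.01 for jag1 (adjusted p = 0.932), so these members lost their calls. The targets hes1 (-0.69) and hes4 (-0.64) and the ligand dll4 (-1.94) were still called lower. The sign of smad7 turned to 0.48 (adjusted p = 0.000803), and smad1 (-1.16), smad9 (-1.40) and fzd6 (-0.66) were then called lower.

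**Figure D3:**
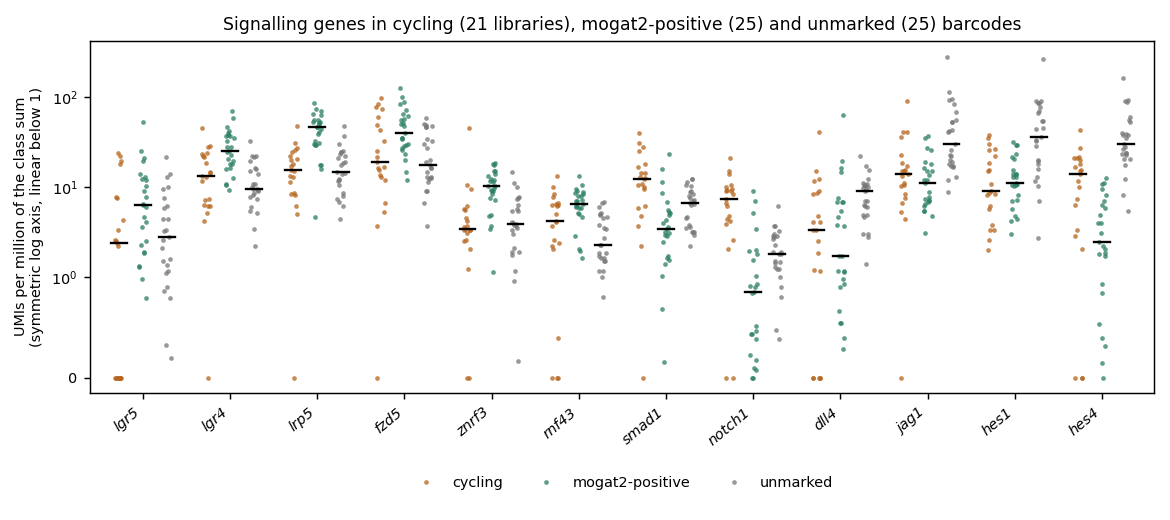
Each point is the level of a member in the cycling (21 libraries), mogat2-positive (25) or unmarked (25) sum of 1 library, in CPM on a symmetric log axis that is linear below 1, and black bars mark medians. The medians of lgr4, lrp5, znrf3 and rnf43 are highest in mogat2-positive sums, that of notch1 is highest in cycling sums at 7.43 CPM, and those of jag1, hes1 and hes4 are highest in unmarked sums.

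In cycling barcodes, the receptor notch1 was higher and the Notch targets hes1 and hes4 and the ligands jag1 and dll4 were lower than in unmarked barcodes. Of 22 members tested, 3 were called higher and 9 lower in edgeR's test, beside 25.5% higher and 44.0% lower of 12117 features. At least 2-fold changes were called for 1 member upwards and 4 downwards, beside 8.95% and 17.6% of all features. The median log2 fold change was -0.27 over the members tested and -0.25 over all features tested, so the share of members called lower stands near the background and that called higher is below it. The TMM factors were higher in cycling sums by a median of 0.456 on the log2 scale. With library totals in their place the median over all features moved to 0.18, the share of calls that were higher moved to 64.9%, against 36.7%, and 7 members were called higher and 4 lower. Those called in the same direction under both scalings were notch1, smad1 and smad3 upwards and dll4, hes1, hes4 and jag1 downwards.

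The receptor notch1 had 0, 7.43 and 21.3 CPM in cycling sums, against 0.386, 1.93 and 6.26 CPM in unmarked sums, and was higher in 18 of 21 libraries (log2 fold change 1.42 ± 0.26). It passed the filter mostly through the cycling sums, with 17 cycling and 4 unmarked libraries past the cutoff, so no p-value is given. Within epithelial-marked barcodes the log2 fold change was 1.54. Among cycling barcodes, those with an epithelial mark only had 14.2 CPM and those with an immune mark only 1.29 CPM of notch1, with the epithelial-marked ones higher in 13 of 15 libraries. The median depth of these sets was 9292 and 6586 UMIs per barcode.

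The target hes4 had 0, 14.1 and 43.1 CPM in cycling sums, against 5.52, 35.7 and 94.2 CPM in unmarked sums, lower in 21 of 21 libraries (log2 fold change -2.01 ± 0.18). It passed the filter through the unmarked sums alone, as did dll4 in this comparison, so no p-value is given for these members. The target hes1 had 1.996, 9.11 and 38.5 CPM against 2.77, 33.0 and 269 CPM, lower in 21 of 21 (-1.88 ± 0.23, adjusted p = 6.81e-08). Within epithelial-marked barcodes hes1 was still lower (-1.10, adjusted p = 0.000165) and hes4 did not pass the filter. The ligand jag1 was lower in 19 of 21 libraries (14.1 against 22.9 CPM in the median library, -1.49 ± 0.20), but within epithelial-marked barcodes its fold change was 0.08 (adjusted p = 0.671). The ligand dll4 (3.37 against 9.98 CPM) fell by 1.17 ± 0.29 on the log2 scale, and by 1.86 within epithelial-marked barcodes. The third Notch ligand among the members, dll1, had 23 UMIs in cycling and 152 in unmarked sums and was not tested, nor were shh (31 and 568), hey1 (14 and 506), rspo3 (16 and 145) or bmp2 (8 and 70 UMIs). The related dld is in the feature list, but the pattern does not name it and it was not analysed here.

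The smads smad1 (12.3 against 7.33 CPM in the median library, log2 fold change 0.44 ± 0.18, adjusted p = 0.0362) and smad3 (5.02 against 2.85 CPM, 0.43 ± 0.18, a member that passed the filter through the cycling sums alone) were higher in 18 of 21 libraries each. The call for smad1 was lost without Boulengerochromis microlepis, Haplochromis burtoni or Simochromis diagramma (adjusted p between 0.0522 and 0.0932), and that for smad3 without Xenotilapia spiloptera. The inhibitor smad7 and the ligand bmp6 each fell by 0.88 on the log2 scale, and both passed the filter through the unmarked sums alone. Of the Wnt members, lrp5 fell by 0.53 ± 0.17 and znrf3 by 0.50 ± 0.21, and the off-family ptchd3 fell by 0.77 ± 0.33. For ptchd3 and znrf3 the call was lost when any 1 of 12 libraries was left out, and none of smad7, bmp6, lrp5, znrf3 or ptchd3 was called with library totals. With barcodes of several marks kept, the sign of lrp5 turned to 0.08 (adjusted p = 0.624).

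The R-spondin receptors lgr4 and lgr5 did not pass the test in cycling barcodes. For lgr5 the values were 0, 2.43 and 23.9 CPM in cycling sums and 0.192, 3.38 and 21.7 CPM in unmarked sums, higher in 10 of 21 libraries and lower in 11 (log2 fold change -0.19 ± 0.31, adjusted p = 0.599). For lgr4 the median was 13.5 CPM against 10.2 CPM (-0.22 ± 0.18, adjusted p = 0.282), and for fzd5 it was 19.4 CPM against 19.3 CPM (-0.24 ± 0.23, adjusted p = 0.363). The signs of all 3 turned positive with library totals, where none was called, and with barcodes of several marks kept lgr4 was called higher (0.39, adjusted p = 0.0353). Cycling barcodes with an epithelial mark only had pooled levels of 20.05 CPM of lgr5, 34.1 CPM of lgr4 and 78.05 CPM of fzd5. Those with an immune mark only had 0 UMIs of lgr5 and of lgr4 in 7720567 UMIs, which allows up to 0.389 CPM, and 0.907 CPM of fzd5. The epithelial-marked ones were higher in 11 of 15 libraries for lgr5, and in 14 of 15 for lgr4 and for fzd5.

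Cycling and absorptive cells of the epithelium were compared directly, as cycling barcodes with an epithelial and no immune mark against mogat2-positive barcodes of the same 11 libraries. In cycling epithelial barcodes smad1 was higher and lgr4, lrp5, znrf3, jagn1 and ptchd3 were lower, which are 1 and 5 of the 12 members tested, beside 27.6% higher and 33.4% lower of 7335 features. At least 2-fold changes were called for 1 member upwards and 2 downwards, beside 13.7% and 20.5% of all features. The median log2 fold change was -0.44 over the members tested and -0.09 over all features tested. The TMM factors differed by a median of 0.919 on the log2 scale, against -0.409, 0.098 and 0.456 in the others. With library totals, the median over all features was 0.70, smad1 was called again, none of the 5 lower members was called, and bmpr2, jag1 and rnf43 were called higher. The call for znrf3 was lost without Limnotilapia dardennii, Oreochromis niloticus or Xenotilapia spiloptera (adjusted p between 0.0533 and 0.0694), and that for ptchd3 when any 1 of 7 libraries was left out (adjusted p between 0.0523 and 0.12).

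The value of smad1 was 7.89, 22.2 and 52.5 CPM in cycling epithelial sums, against 0.683, 5.36 and 23.6 CPM in mogat2-positive sums, higher in 10 of 11 libraries (log2 fold change 1.10 ± 0.31). It passed the filter mostly through the cycling epithelial sums, with 9 such libraries and 3 mogat2-positive ones past the cutoff, so no p-value is given. For lgr5 the values were 0, 10.7 and 35.5 CPM against 1.88, 12.6 and 53.8 CPM. It was higher in 6 and lower in 5 libraries, and its log2 fold change of -0.15 ± 0.44 did not pass the test (adjusted p = 0.793). The receptor lgr4 was at 28.7 against 37.4 CPM in the median library (-0.82 ± 0.24) and the co-receptor lrp5 at 29.6 against 47.0 CPM (-1.13 ± 0.26, adjusted p = 0.0014). As lgr4 passed the filter through the mogat2-positive sums alone, no p-value is given for it. For notch1, which did not pass the filter here, 4.69, 17.4 and 54.3 CPM were measured in cycling epithelial sums and 0.172, 1.83 and 9.17 CPM in mogat2-positive sums, higher in 11 of 11 libraries. The receptor fzd6, also below the filter, was higher in 11 of 11 as well (9.38 against 2.58 CPM in the median library).

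Other genes of the same pathways, 43 by symbol from a list of intracellular components, modulators and targets, were read in the same tests. Which class carried each of these genes past the filter on low counts was not counted. A gene that passed only because it is high in either class had to differ. The counts, calls and fold changes of these genes are therefore a description. In collagen-positive barcodes 17 of 34 tested were called higher and 10 lower, beside the 24.3% and 39.6% of all features given above. Those with the highest fold changes were the transcription factor foxf1, a Hedgehog target in mammals (8.76 ± 0.43), the BMP-binding proteins chrdl2 (7.72 ± 0.44) and twsg1 (7.62 ± 0.37), the Hedgehog co-receptor boc (6.03 ± 0.40), the ephrin receptor ephb4 (5.10 ± 0.34), the Wnt signal transducer dvl2 (4.89 ± 0.29), the Hedgehog-binding protein hhip (4.77 ± 0.32), the Hedgehog co-receptor cdon (4.51 ± 0.51) and the BMP target id1 (4.30 ± 0.24). Of the 10 called lower there, 6 fell at least 2-fold. They were dtx1 (-3.58), tcf7 (-2.61), id2 (-1.81), gsk3b (-1.08), ctnnb1 (-1.06) and adam10 (-1.05). In mogat2-positive barcodes 7 of 29 were higher and 13 lower, beside 33.3% and 40.9% of all features, with nkd1, an inhibitor and target of Wnt signalling, at 2.12 ± 0.15 and the Wnt-pathway factor tcf7l2 at 1.40 ± 0.12, against -4.07 ± 0.24 for the ubiquitin ligase dtx1 and -1.75 ± 0.11 for rbpj, the DNA-binding factor of Notch signalling. Other Wnt genes were called lower there, namely ctnnb1, which encodes beta-catenin (-3.22 ± 0.17), the factor tcf7 (-2.84 ± 0.20) and the targets myc (-2.27 ± 0.22) and ccnd1 (-1.0 ± 0.12). Against epithelial-marked unmarked barcodes, 9 of these 20 calls held in the same direction, while kif7, maml2, rfng and disp1 did not pass the filter and were not tested again. There nkd1 (0.88), rbpj (-0.25, adjusted p = 0.0097), ctnnb1 (-0.38), myc (-0.86) and ccnd1 (-1.06) were still called, and tcf7l2 (0.15, adjusted p = 0.117), tcf7 (-0.18, adjusted p = 0.137) and dtx1 (-0.26, adjusted p = 0.353) were not. The call for cdon turned, with -0.72 (adjusted p = 0.000152) in place of 0.53. In cycling barcodes 3 of 26 were higher (ctnnbip1, ccnd1 and ephb3) and 15 lower, beside 25.5% and 44.0% of all features, and within epithelial-marked barcodes 9 of these 18 calls held, these 3 among them. The called dtx1 and maml2 did not pass the filter within epithelial-marked barcodes. There rbpj (0.65 in place of -0.58, adjusted p = 0.0021) and maml1, a co-activator of Notch signalling (0.50 in place of -0.27, adjusted p = 0.017), were called the other way. In cycling epithelial against mogat2-positive barcodes 5 of 19 were higher, among them ccnd1, a cyclin and Wnt target (3.24 ± 0.31, 93.0 against 5.39 CPM in the median library), and ephb3, an ephrin receptor and Wnt target in mammals (1.68 ± 0.27), and 4 were lower, among them nkd1 (-1.58 ± 0.33) and tcf7l2 (-1.44 ± 0.21), beside 27.6% and 33.4% of all features. With library totals these counts were 4 higher and 21 lower in mogat2-positive, 6 and 7 in cycling, and 14 and 3 in cycling epithelial barcodes, and 17 and 10 as before in collagen-positive barcodes. Of the calls over all features with library totals, 26.0%, 64.9%, 81.3% and 39.4% were higher in these comparisons, in the same order.

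**Figure D4:**
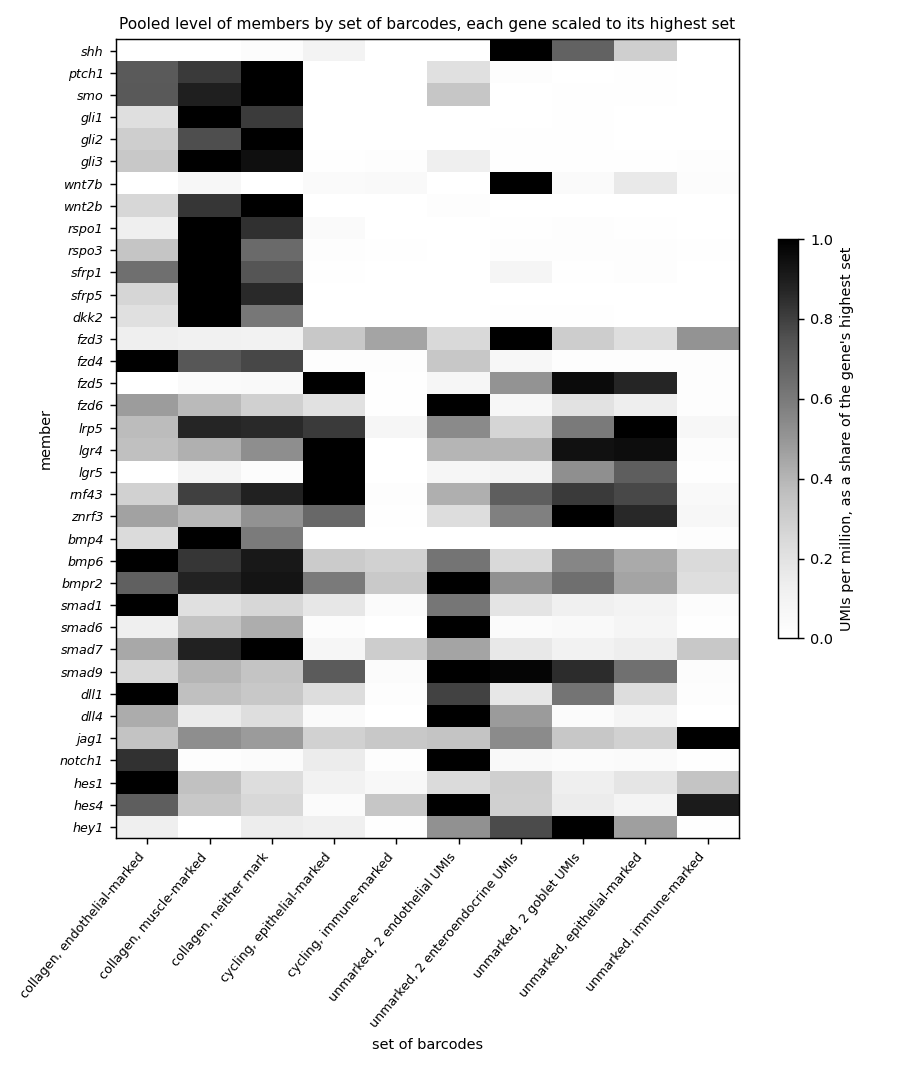
Shading gives the pooled level of the members named at the left in sets of barcodes over the 25 libraries, as a share of the set in which that member is highest, with genes down the page by pathway and sets across it. The receptors and factors of Hedgehog signalling are darkest in collagen-positive sets, shh and wnt7b in enteroendocrine-marked barcodes, fzd5, lgr4 and lgr5 in epithelial-marked sets, and jag1 in immune-marked barcodes.

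Within the unmarked class the members fell into sets by lineage mark. In barcodes with an epithelial mark only, fzd5 had 68.2 CPM, lrp5 44.8, lgr4 32.4, lgr5 14.1, znrf3 11.5 and rnf43 8.41 CPM, against 1.09 CPM of fzd5, 2.67 of lrp5, 0.835 of lgr4, 0.154 of lgr5, 0.890 of znrf3 and 0.527 CPM of rnf43 in barcodes with an immune mark only. The order was the other way for hes4 (6.91 against 67.3 CPM) and jag1 (17.5 against 62.01 CPM), which were lower in 25 and 21 of 25 libraries. For hes1 the pooled levels were 33.6 against 64.3 CPM, but it was higher in 11 and lower in 14 of 25 libraries.

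Barcodes with at least 2 UMIs of enteroendocrine markers, 2285 in all, had 116.5 CPM of dll4, against 19.95 CPM in epithelial-marked barcodes, and were higher in 25 of 25 libraries. The Wnt ligand wnt7b had 5.82 against 0.933 CPM in these sets and was higher in 18 libraries and lower in none, with 66 UMIs in the first. In the 147 unmarked barcodes with at least 2 UMIs of endothelial markers, dll4 had 241 CPM, notch1 97.2 CPM and fzd6 54.7 CPM, against 0.659, 0.802 and 0.835 CPM in immune-marked barcodes. The order held for dll4 in 5 of 5 libraries with at least 10 barcodes of each set and for notch1 in 4 of 5. These sets overlap with each other and are described without a test.

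**Figure D5:**
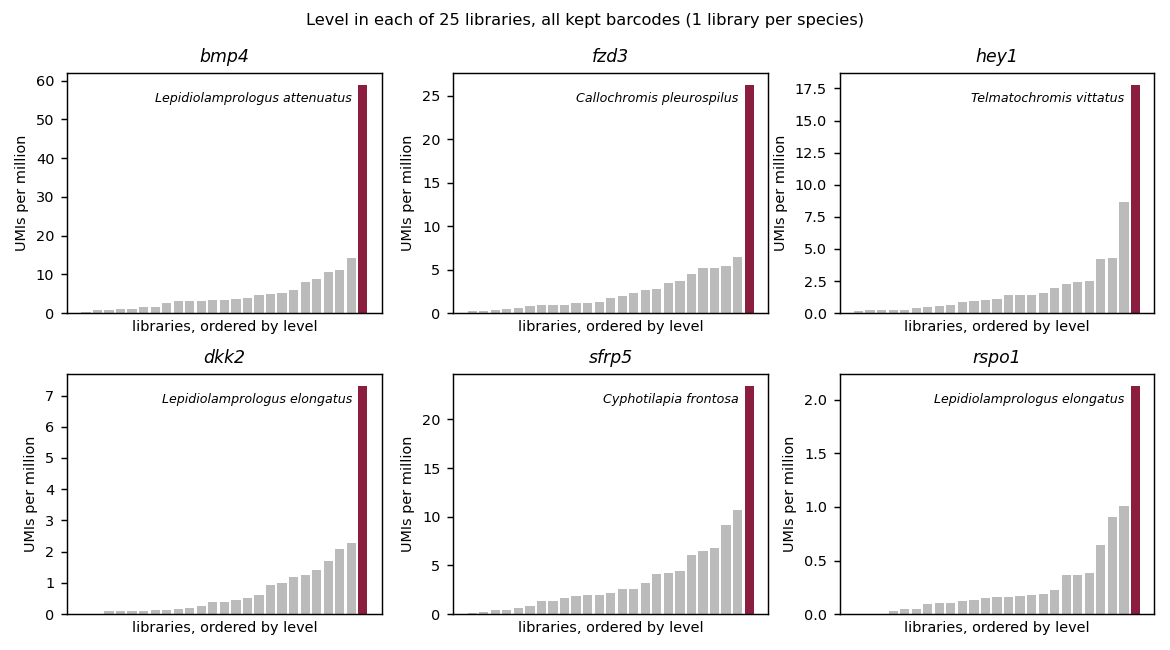
Bars give the level of 6 members in each of the 25 libraries over all kept barcodes, in CPM from 0, ordered from low to high within each panel. The highest library, named in each panel, is at least 2 times the next in every panel, as for bmp4 with 58.9 against 14.3 CPM.

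Over all kept barcodes, 6 of the 45 members with at least 100 UMIs had a highest library at least 2 times the next, a rule set after the values were seen. For bmp4 the level was 58.9 CPM in Lepidiolamprologus attenuatus, 14.3 CPM in the next library and 3.51 CPM in the median library. Of its 594 UMIs in Lepidiolamprologus attenuatus, 35 came from collagen-positive and 544 from unmarked barcodes. Immune-marked unmarked barcodes there had 441 UMIs of bmp4, or 91.0 CPM, against 7 UMIs, or 0.0812 CPM, in those of the 24 other libraries. Other unmarked barcodes of this library were also above those of the others. The levels were 82.3 against 1.82 CPM with neither an immune nor an epithelial mark, 59.0 against 0.427 CPM with both, and 3.14 against 0.178 CPM with an epithelial mark only. The collagen-positive level of bmp4 in this library, 139 CPM, lay inside the range of the others.

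For fzd3 the level was 26.3 CPM in Callochromis pleurospilus and 6.42 CPM in the next library. Its immune-marked unmarked barcodes had 35.3 CPM of fzd3, against 3.96 CPM in the 24 other libraries pooled and 11.7 CPM in the highest of them. Its enteroendocrine-marked barcodes had 30.6 CPM, against 6.12 CPM pooled and 18.7 CPM in the highest. For hey1, a Notch target, the level was 17.8 CPM in Telmatochromis vittatus and 8.69 CPM in the next library. Epithelial-marked unmarked barcodes there had 55.9 CPM of hey1, against 4.16 CPM in the 24 other libraries pooled and 24.3 CPM in the highest of them, Julidochromis ornatus. Immune-marked ones had 0 UMIs. In unmarked barcodes with at least 2 UMIs of goblet markers, Julidochromis ornatus was higher, with 192.7 against 49.1 CPM in Telmatochromis vittatus.

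The other members of this kind were secreted factors of the collagen-positive class. In Lepidiolamprologus elongatus, dkk2 had 163 CPM in collagen-positive barcodes, against 30.1 CPM in the 24 other libraries pooled and 88.55 CPM in the highest of them, and rspo1 had 33.9 against 7.66 CPM pooled and 22.5 CPM in the highest. In Cyphotilapia frontosa, sfrp5 had 553 CPM in collagen-positive barcodes, against 141 CPM in the 24 others pooled and 493 CPM in the highest of them, Trematocara zebra, and this library had the most collagen-positive barcodes, 239. With 1 library per species, a difference of the species, the fish or the dissociation cannot be told apart, and the part of how well each species matches the shared feature list was not tested.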

How the data were processed

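Per the labels, intestines were dissociated with dispase II, passed through a 20 µm strainer and made into Chromium 3' v3.1 libraries. The deposited values are whole-number UMI counts per gene and barcode, made with Cell Ranger 5.0.0 per the file headers (5.0 per the submitters' processing notes). The genome build and annotation are not given in the sources used here, and every species was counted on the same 42622 features.

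Barcodes with at least 500 UMIs and 250 genes were kept, and barcodes with the highest simulated-doublet scores were removed (a share that grew with the number of barcodes, 3567 in all). Counts were summed by class and library (at least 20 barcodes) and tested with edgeR 4.0.16 (R 4.3.3), with filterByExpr, TMM factors, a quasi-likelihood fit with the library as a block, and Benjamini-Hochberg adjustment over all features tested. Each library supplies both classes of a comparison, so the block pairs sums of the same fish or fishes. Each SE was derived from this test, as the absolute log2 fold change divided by the square root of its F statistic. DESeq2 1.42.0 was an alternative. Refits that leave out 1 library kept the features and dispersion trend of the full fit. The test was checked on simulated counts, in which it called 100% of 4-fold changes in each comparison and between 72% and 100% of 2-fold changes (in the collagen comparison 76.6% of increases and 74.4% of decreases), and at most 0.364% of unchanged features in any. The simulation gave all features the same dispersion and changed few of them, none sparse, with increases and decreases balanced. In the real sums most features were called and many members are sparse, so these rates need not hold there.

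Marks and classes were sets of genes: cdh17, epcam, hnf4a and cldn15 marked epithelial and csf1r, lcp1, ptprc and lck immune barcodes. The text names up to 10 members in each direction by fold change among those called, with at least 50 UMIs and the same direction in 75% of libraries, and listed niche genes whatever their values. Members and lists were chosen with earlier results of these data known. Counts of UMIs carry counting error that limits members with few UMIs, and the floor for a count of 0 is 3 UMIs. A result for some of the genes is not reported here. The labels do not say how many fish gave a library.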

Additional observations from a re-analysis of the deposited data

How the results depend on the processing

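Of the values of named members and barcode classes under alternatives other than leaving out single libraries, 683 were unchanged. For fold changes this means the same direction and side of the threshold. The 683 also include shares of barcodes per class and median levels over all deposited barcodes, which have no call. Among the fold changes of named members, 40 changed sign, and of those that kept their sign 42 lost a call and 7 gained one. Some of the 40 also lost or gained a call. A further 26 values of tested members outside the naming rule also changed sign. The number called higher in mogat2-positive barcodes stayed within 1.5 times of 11 under every alternative (8 to 12). Without the filter on low counts, members called higher numbered 38 in collagen-positive and 3 in cycling epithelial barcodes, and members called lower 18 in cycling, 17 in mogat2-positive, 8 in collagen-positive and 10 in cycling epithelial barcodes. Without the library block, which sets aside the pairing of classes within a library, 1 member was called higher and 5 lower in cycling, 5 lower in mogat2-positive and 3 lower in cycling epithelial barcodes. No paired analysis was possible between species because each has 1 library. With library totals, 7 were called higher and 4 lower in cycling, and 4 higher and 0 lower in cycling epithelial barcodes. Over all features, 64.9% of the calls were then higher in cycling and 81.3% in cycling epithelial barcodes, against 36.7% and 45.3%. Among epithelial-marked barcodes only, 4 were called lower in cycling. Keeping barcodes with several marks, keeping doublets or leaving out Trematocara zebra each left 5 called lower in mogat2-positive barcodes. More UMIs to mark a barcode gave 2 higher and 3 lower, and keeping several marks 3 higher, in cycling epithelial barcodes. At least 2000 UMIs per barcode gave 1 lower in collagen-positive and 3 lower in cycling epithelial barcodes, and DESeq2 gave 4 lower in collagen-positive barcodes. The share of all features called was not counted under the alternatives other than scaling, nor with single libraries left out. These counts of members are therefore a description.

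Leaving out each library in turn gave 2 to 3 higher and 7 to 9 lower in cycling, 11 to 12 higher and 5 to 8 lower in mogat2-positive, 21 to 21 higher and 2 to 3 lower in collagen-positive, and 1 to 1 higher and 4 to 5 lower in cycling epithelial barcodes. The 5 lower in mogat2-positive barcodes came without Haplochromis burtoni, Neolamprologus brichardi or Petrochromis orthognathus. Signs changed within the leave-one-out ranges of bmpr2 (-0.08 to 0.06) and lgr5 (-0.41 to 0.04) in cycling, hey1 in mogat2-positive (-0.19 to 0.08), lgr4 in collagen-positive (-0.18 to 0.18), and jag1 (-0.12 to 0.07) and lgr5 (-0.47 to 0.06) in cycling epithelial barcodes.

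The log2 fold changes of opposite sign follow for the members the naming rule selects. In cycling barcodes, bmpr2 was 0.01 without the block, 0.15 with more UMIs to mark, 0.19 with several marks, 0.08 with doublets, 0.05 without barcodes over 20% mitochondrial, 0.41 with library totals and 0.04 among epithelial-marked barcodes. There, fzd5 was 0.21 with several marks and 0.20 with library totals, jag1 0.08 among epithelial-marked barcodes, lgr4 0.39 with several marks, where it was called, 0.01 without barcodes over 20% mitochondrial and 0.20 with library totals, and lgr5 0.02 with more UMIs, 0.44 with several marks, 0.17 with library totals and 0.02 among epithelial-marked barcodes. In mogat2-positive barcodes, bmpr2 was -0.16 with library totals and -0.16 against epithelial-marked unmarked barcodes, where jag1 was 0.01 and smad7 0.48. There, hey1 was 0.14 with doublets and 0.07 without Trematocara zebra in the comparison with all unmarked barcodes. In collagen-positive barcodes, hes1 was 0.11 without the block and 0.23 at 2000 UMIs, and lgr4 was -0.05 with RLE factors, -0.19 without the filter, -0.07 with DESeq2 and -0.03 at 2000 UMIs. In cycling epithelial barcodes, jag1 was -0.06 with RLE factors, -0.16 without the filter, -0.06 with DESeq2, -0.13 with more UMIs, -0.09 with doublets and -0.02 at 2000 UMIs, lgr5 was 0.14 with more UMIs, and with library totals fzd5 was 0.43, lgr5 0.60, rnf43 0.57 and znrf3 0.06. Of the members outside the rule, those with a call on either side were lrp5 (0.08 with several marks) and jagn1 (0.45 with library totals) in cycling, smad3 (-0.05), jagn1 (-0.02) and bmp6 (-0.41) with library totals and fzd6 (-0.66) against epithelial-marked unmarked barcodes in mogat2-positive, and jagn1 (0.04 with library totals) in cycling epithelial barcodes. The cause of these changes was not tested. Depth limits the sparse members: 12 of 68 had fewer than 50 UMIs.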
